A study of Homo sapiens with 2 samples.

Results

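Cells with high RNA levels of the MCM genes were chosen from the SH-SY5Y neuroblastoma line as cells at the start of DNA replication. They were selected on their own counts. Of the 1920 kept cells, the 288 in the top 15% for the summed UMIs (unique molecular identifiers, counted molecules) per 10000 of MCM2, MCM3, MCM4, MCM5, MCM6, MCM7, GINS2, CDC6, SLBP and UNG were taken. The 34 of them that were also in the top 10% for the histone RNA H4C3 were left out. This gave 254 MCM-high cells, 117 of the 829 kept cells of flask SplitA (14.1%, exact binomial 95% interval 11.8 to 16.7) and 137 of the 1091 of SplitB (12.6%, 10.6 to 14.7).

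SH-SY5Y is an established line of neuroblast-like cells from a human neuroblastoma. Untreated cells of a single culture were divided over SplitA and SplitB and grown in the same medium, and at harvest each flask received its own hashtag antibody before the cells were mixed into 1 CITE-seq library. Both flasks share genotype, medium and library, no cell was synchronized, and no treatment was compared. A p-value over 2 flasks of 1 culture covers only how far a class difference varied between these flasks, which may be technical. With 1 residual degree of freedom per gene, most of the variance estimate behind it is shared across genes. Cells were kept with 1 hashtag at least 3 times the other and the other under a fixed limit, at least 1000 genes and under 15% of UMIs from 13 mitochondrial genes. Of 2879 deposited cells, all with distinct barcodes, 2784 were assigned to a flask, and 690 of these had under 1000 genes and another 174 too much mitochondrial RNA.

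The MCM2 to MCM7 proteins form the ring-shaped helicase that is loaded on replication origins in G1 with the help of CDC6 and CDT1, and that unwinds DNA in S phase once CDC45 and the GINS complex have joined it. Their genes, with those of the replication fork and of nucleotide synthesis, are classical targets of the E2F transcription factors, which are released as cyclin-dependent kinases inactivate RB at the end of G1. Histone mRNAs accumulate while DNA is made, and genes of mitosis are switched on later in the cycle.

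The ranking genes chose the cells, so their levels in these cells are a description. Summed over the 10 genes, the level was 1162 CPM (UMIs of a gene per 1000000 gene UMIs) in MCM-high cells of SplitA and 1136 in those of SplitB, against 341 and 358 in the other kept cells. The call rests on few molecules, with a median of 6 ranking UMIs per MCM-high cell (range 3 to 20) spread over a median of 4 of the 10 genes. In 3 of the 254 cells only 1 of the genes had a UMI, and in 0 cells all 10 had. The limit was 8.74 UMIs per 10000. The cells just inside it had 8.757, 8.760 and 8.765, those just outside 8.738, 8.727 and 8.727, and 58 MCM-high cells lay within 10% of the limit, so the group is a range of a score and not a separate type.

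To see whether the ranking genes moved together, each gene was measured in cells chosen by the other 9. MCM6, a subunit of the helicase ring, had 67.4 CPM in SplitA and 53.3 in SplitB in cells chosen without it, against 22.5 and 27.7 in the rest, which is 3.0 and 1.92 times as much. GINS2, a subunit of the GINS complex, had 158 and 128 CPM against 61.0 and 64.6. MCM7, another ring subunit, was 1.74 and 1.27 times as high, and UNG, which removes uracil from DNA, 1.27 and 1.71 times. In both flasks the level of each of the 10 genes was above that in the rest. The exact Poisson 95% intervals overlapped for UNG and CDC6 in both flasks and for MCM7 in SplitB, as for UNG in SplitA (13.7 to 37.6 against 14.9 to 22.7). These intervals, as all intervals here, cover counting error only. DNA content was not measured, so the phase of a cell rests on RNA alone.

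**Figure D1:**
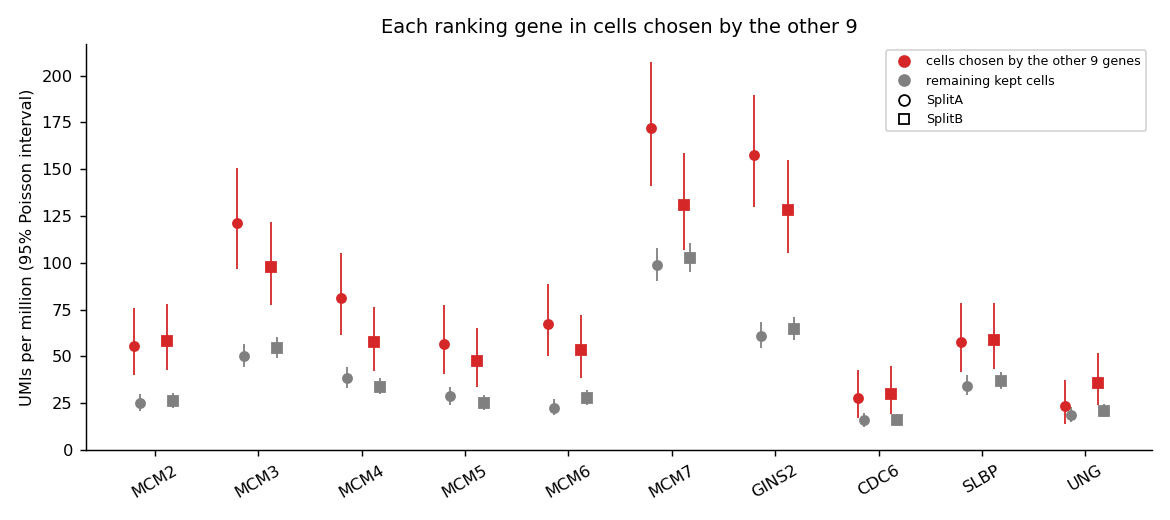
Level of each ranking gene (CPM, vertical axis) in cells chosen by the other 9 genes (red) and in the rest of the kept cells (grey), with circles for SplitA, squares for SplitB and bars for exact Poisson 95% intervals. Every red point lies above its grey neighbour, from 1.27 times (UNG in SplitA, MCM7 in SplitB) to 3.0 times (MCM6 in SplitA).

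H4C3, a replication-dependent histone H4 gene on chromosome 6 (26103933 to 26104337), was used to leave cells out, and it divided the MCM-high cells. Of the SplitA cells 70 had under 20 H4C3 UMIs per 10000 and 47 had 20 or more (40.2%, interval 31.2 to 49.6), and of the SplitB cells 98 and 39 (28.5%, 21.1 to 36.8). Among the other kept cells below the same limit of 83.7, 15.8% and 16.3% had 20 or more. The group therefore held many cells with little H4C3 and a smaller number with much, and 15 and 24 of its cells had no H4C3 UMI. The 10 genes of the G2/M class, such as CENPF and TOP2A, put 9.40% of the MCM-high cells of SplitA (4.79 to 16.2) and 11.7% of those of SplitB (6.82 to 18.3) in the top 15% of kept cells, against 17% and 14.7% of the other kept cells, and in both flasks the intervals overlapped.

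**Figure D2:**
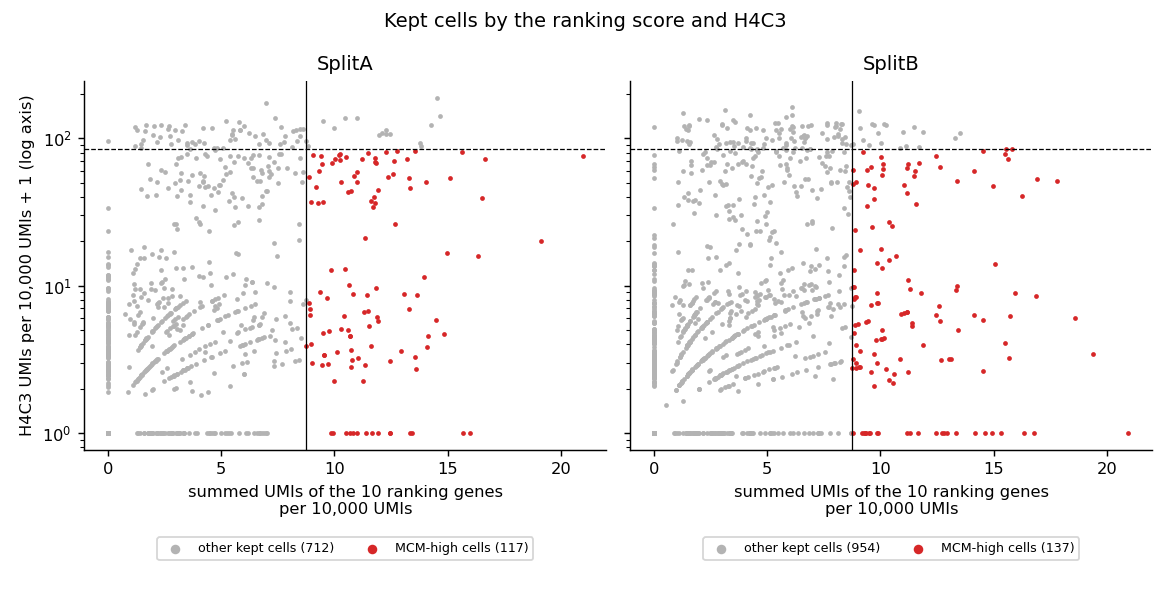
Each kept cell by its ranking score (horizontal axis, summed UMIs of the 10 ranking genes per 10000) and its H4C3 UMIs per 10000 plus 1 (vertical log axis), per flask, with MCM-high cells in red and the limits as lines (8.74 for the score, 83.7 for H4C3). In SplitA 47 of the 117 red points and in SplitB 39 of the 137 lie at 20 H4C3 UMIs per 10000 or more.

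E2F binding sites are a known feature of promoters of this kind, and the windows below are shown because they place the E2F letters of 3 ranking genes beside those of 4 genes that were not used for the ranking. RefSeq promoters (GRCh38.p14, 250 bases before to 50 after the start site) were searched on both strands for TTTGGCGC, TTTCCCGC, TTTGCCGC and TTTCGCGC, counting matches that overlap. Of the 10 ranking genes, 8 had a promoter in the table and 6 of these held a match (75%). Among all 27305 promoters 3.33% held one, and among the 8693 of the genes tested below 5.64%. The genes called higher in MCM-high cells in the comparison below held one in 21 of 94 promoters (22.3%), and the genes called lower in 7 of 103 (6.80%). The tested genes of the replication and E2F lists that were not called held one in 21 of 90 (23.3%), and those of the same lists called higher in 12 of 34 (35.3%). A match is a description of letters and not of binding. The lines give the bases upstream of the start site, 5′ to 3′ on the strand of the gene, with every match in capitals.
MCM6: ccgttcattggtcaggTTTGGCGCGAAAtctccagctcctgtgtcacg
MCM3: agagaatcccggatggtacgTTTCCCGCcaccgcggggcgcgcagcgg
GINS2: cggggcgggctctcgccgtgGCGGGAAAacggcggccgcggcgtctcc
E2F1: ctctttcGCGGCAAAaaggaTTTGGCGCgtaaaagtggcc
CDT1: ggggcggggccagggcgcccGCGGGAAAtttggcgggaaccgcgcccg
PCNA: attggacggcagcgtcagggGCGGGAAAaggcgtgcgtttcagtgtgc
TYMS: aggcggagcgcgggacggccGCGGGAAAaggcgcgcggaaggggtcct

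On GRCh38 these windows are at chr2:135876502-135876549 for MCM6 (minus strand), chr6:52284889-52284936 for MCM3 (minus), chr16:85688958-85689005 for GINS2 (minus), chr20:33686386-33686425 for E2F1 (minus), chr16:88803734-88803781 for CDT1 (plus), chr20:5126654-5126701 for PCNA (minus) and chr18:657594-657641 for TYMS (plus). In GENCODE release 44 the GINS2 window lies inside GINS2 but outside its exons, the TYMS window overlaps an exon of TYMSOS, and the others overlap no gene. MCM6 held 4 matches in its 300 bases and E2F1 2 matches.

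The MCM-high cells were then compared with the other 1666 kept cells, each flask apart, without the ranking genes and H4C3. These other cells hold the 34 that passed the score limit and were left out for H4C3. Counts were summed per flask and class, 724635 UMIs for the MCM-high cells of SplitA and 806332 for those of SplitB, against 4915912 and 6917805 for the others, and tested with edgeR's quasi-likelihood test with the flask as a block and Benjamini-Hochberg adjustment. Of 10715 genes tested, 120 were higher (1.12%) and 132 lower (1.23%) at an adjusted p under 0.05, and the median log2 difference of all tested genes was -0.01. With library totals in place of TMM scaling 211 were higher and 88 lower, so the balance of the directions depends on the scaling. DESeq2 called 26 of the higher and 64 of the lower genes.

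Genes of origin licensing and firing were among the higher genes. Of the 24 genes of this list, 23 passed the filter on low counts, 6 were called higher (26.1%) and 0 lower, and their median log2 difference was 0.45. CDC45 (chr22, 19479457 to 19520612), which joins the MCM ring to make it an active helicase, had 20.7 and 28.5 CPM in MCM-high cells of SplitA and SplitB and 9.15 and 9.25 in the other cells. It was 1.36 higher on the log2 scale (SE 0.30, edgeR adjusted p = 0.0123). MCM10, which helps to start the helicase, had 44.2 and 55.8 CPM against 21.8 and 25.2. CDT1, the loading factor of the MCM ring, had 88.3 and 104 CPM against 53.3 and 50, a difference of 0.84 (SE 0.15). CLSPN, the fork and checkpoint mediator claspin, was higher by 0.84, ORC6, a subunit of the origin recognition complex, by 0.84 and GMNN, which inhibits CDT1, by 0.74.

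In the replication fork all 29 genes were tested, 8 were called higher (27.6%) and 0 lower, with a median of 0.59. PCNA (chr20, 5114953 to 5126626), the sliding clamp of the DNA polymerases, had 166 and 134 CPM in MCM-high cells and 58.8 and 62.2 in the others (log2 1.22, SE 0.13, edgeR adjusted p = 1.68e-06). RFC4, a subunit of the clamp loader, had 73.1 and 62.0 CPM against 29.1 and 30.5. FEN1, which trims Okazaki fragments, had 108 and 102 CPM against 45.0 and 49.6, and LIG1, which joins them, 34.5 and 29.8 against 12.4 and 17.8. The remaining calls were RPA2 (0.98), RFC2 (0.76), POLE3 (0.60) and RPA3 (0.57), of which RPA3, a subunit of the single-stranded DNA binding complex, held the most UMIs of the list.

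All 25 genes of nucleotide supply were tested, and 7 were called higher (28%) and 0 lower, with a median of 0.37. TK1 (chr17, 78174091 to 78187233), which salvages thymidine, had 123 and 119 CPM against 48.6 and 49.9, a log2 difference of 1.22 (SE 0.13, edgeR adjusted p = 3.01e-06). RRM2, the small subunit of ribonucleotide reductase, had 91.1 and 122 CPM against 60.6 and 57.0, and TYMS, which makes thymidylate, 163 and 151 against 96.6 and 97.3. DCTPP1, which clears unwanted dCTP, was higher by 0.81 and NME1 by 0.36. DUT, which keeps dUTP out of DNA, had 567 CPM in both flasks against 343 and 349 (log2 0.64), and was the most abundant of the list.

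Chromatin assembly and maintenance had the highest share of higher calls among the lists, 8 of 20 tested genes (40.0%), with 0 lower and a median of 0.66. UHRF1 (chr19, 4903080 to 4962154), which guides maintenance methylation behind the fork, had 70.4 and 67.0 CPM against 27.9 and 30.2. CHAF1A, the large subunit of the histone chaperone CAF-1, had 69.0 and 86.8 CPM against 36.2 and 35.7, and CDCA7, which takes part in chromatin remodelling, 88.3 and 95.5 against 44.3 and 40.2. MMS22L, which protects stalled forks, NASP, a histone chaperone, PCLAF, a partner of PCNA, DNMT1, the maintenance methyltransferase, and SSRP1, a subunit of FACT, were higher by 1.05, 0.87, 0.66, 0.47 and 0.41. In DNA repair and checkpoint, 23 of 26 genes passed the filter, and 6 were higher (26.1%) and 0 lower, with a median of 0.63. CHEK1, the checkpoint kinase of S phase, had 64.9 and 57.0 CPM against 29.7 and 28.9. XRCC2 was higher by 0.96, USP1 by 0.70, FANCA by 0.70 and PARP1, the most abundant of the list, by 0.35.

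Over these 5 lists 35 genes were called higher, and none was called lower by edgeR. Of the 35, 31 were also called in cells of 4000 to 8000 UMIs alone, 33 with the score ranked within bands of depth, 26 with the score taken from cells thinned to 2000 UMIs, 27 with the 6 MCM genes alone and 22 with the top 20% for H4C3 left out. DESeq2 called 4 of the 35, among them DUT, RPA3 and PCLAF.

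Among E2F genes, cyclins and their inhibitors, 27 of 30 genes passed the filter, and 3 were called higher and 1 lower, with a median of 0.39. DTL (chr1, 212035553 to 212107400), which directs CDT1 to degradation, had 58.0 and 69.5 CPM against 25.2 and 26.3 (log2 1.24, SE 0.18, edgeR adjusted p = 0.000105). E2F1 (chr20, 33675477 to 33686385), the activator of this programme, had 174 and 133 CPM against 74.9 and 77.0, a difference of 0.93. CCND1, cyclin D1 and the most abundant of the list, had 817 and 892 CPM against 688 and 614, a difference of 0.33. CDKN1C (chr11, 2883213 to 2885775), which encodes the CDK inhibitor p57, was the gene called lower, with 33.1 and 26.0 CPM against 77.3 and 82.4 (log2 -1.52, SE 0.19, edgeR adjusted p = 2.1e-05). CCNE1, cyclin E1, had 20.7 and 14.9 CPM against 12.4 and 9.25, from 15 and 12 UMIs, and did not pass the test (log2 0.64, SE 0.32, edgeR adjusted p = 0.425). CCNE2, with 2 and 5 UMIs in the MCM-high cells, was under the filter. CDKN1A, the p53 target p21, had 29.0 and 26.0 CPM against 24.2 and 29.8, with no direction shared by the flasks, and of the 17 tested p53 targets 0 passed in either direction.

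**Figure D3:**
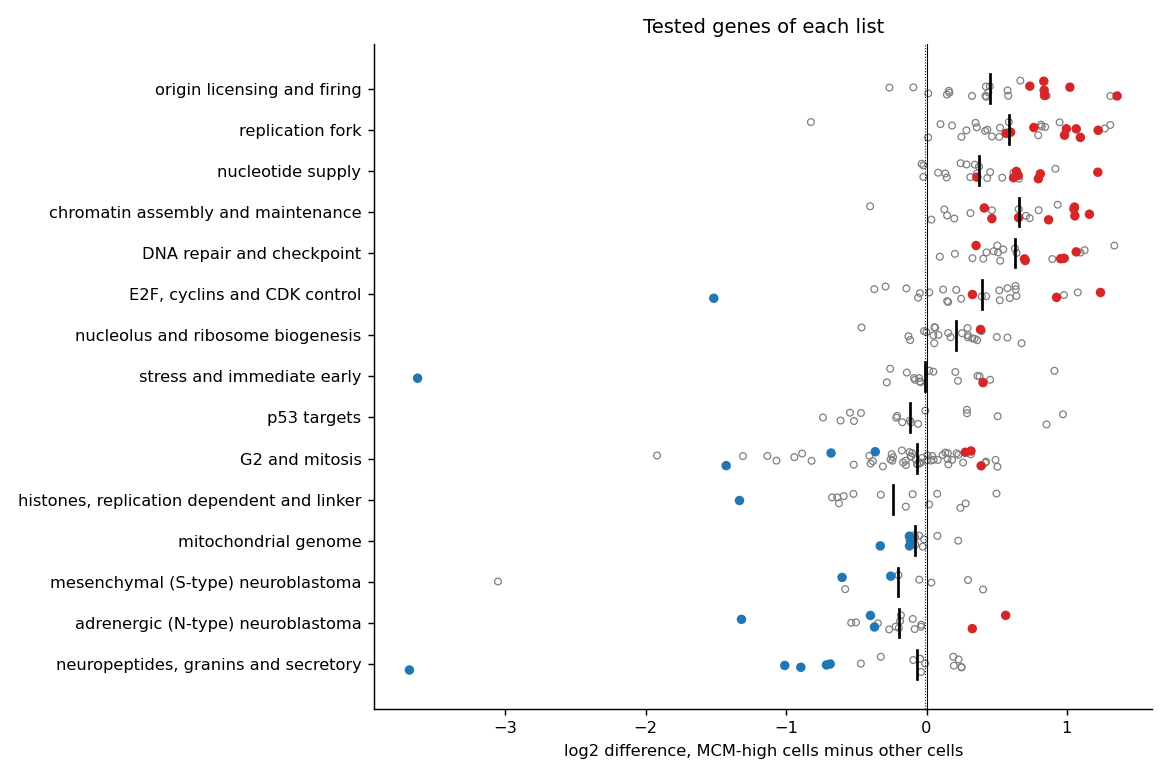
Each point is a tested gene of a list, by its log2 difference (MCM-high cells minus other cells, horizontal axis), filled red or blue where called higher or lower and open where not called. The black bars are medians of the tested genes, among the lists drawn from 0.66 for chromatin assembly to -0.24 for histones, beside -0.01 over all genes tested (dotted).

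Of the genes of G2 and mitosis all 57 were tested, with 3 called higher, 3 lower and a median of -0.07. Summed over the list the level was 4648 CPM in SplitA and 4766 in SplitB, against 4391 and 4195 in the other cells. The higher genes were HMGB2 (1035 and 1048 CPM against 814 and 779), SMC4 and CKS1B. The lower ones were AURKA (12.4 and 3.72 CPM against 24.0 and 16.5), CENPA (40.0 and 37.2 against 60.4 and 57.2) and CKS2. This depended on which cells stood on the other side, which include cells of G2 and mitosis. The 1250 remaining cells were left after cells high for the G2/M class genes, CENPF, TOP2A and AURKA among them, had been taken out, while 27 such cells were kept among the MCM-high cells. Against them CENPA was 0.94 higher, CENPF 1.03 and TOP2A 1.1, which is a description, since the choice of the classes favours this direction. MKI67, the proliferation marker, had 127 and 130 CPM in MCM-high cells, 57.6 and 60.0 in the remaining cells and 397 and 345 in G2/M-high cells. Of the 14 histone genes that passed the filter, H2AC6 was lower and none was higher, and their median was -0.24. Since H4C3 was used to leave cells out, this is a description.

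**Figure D4:**
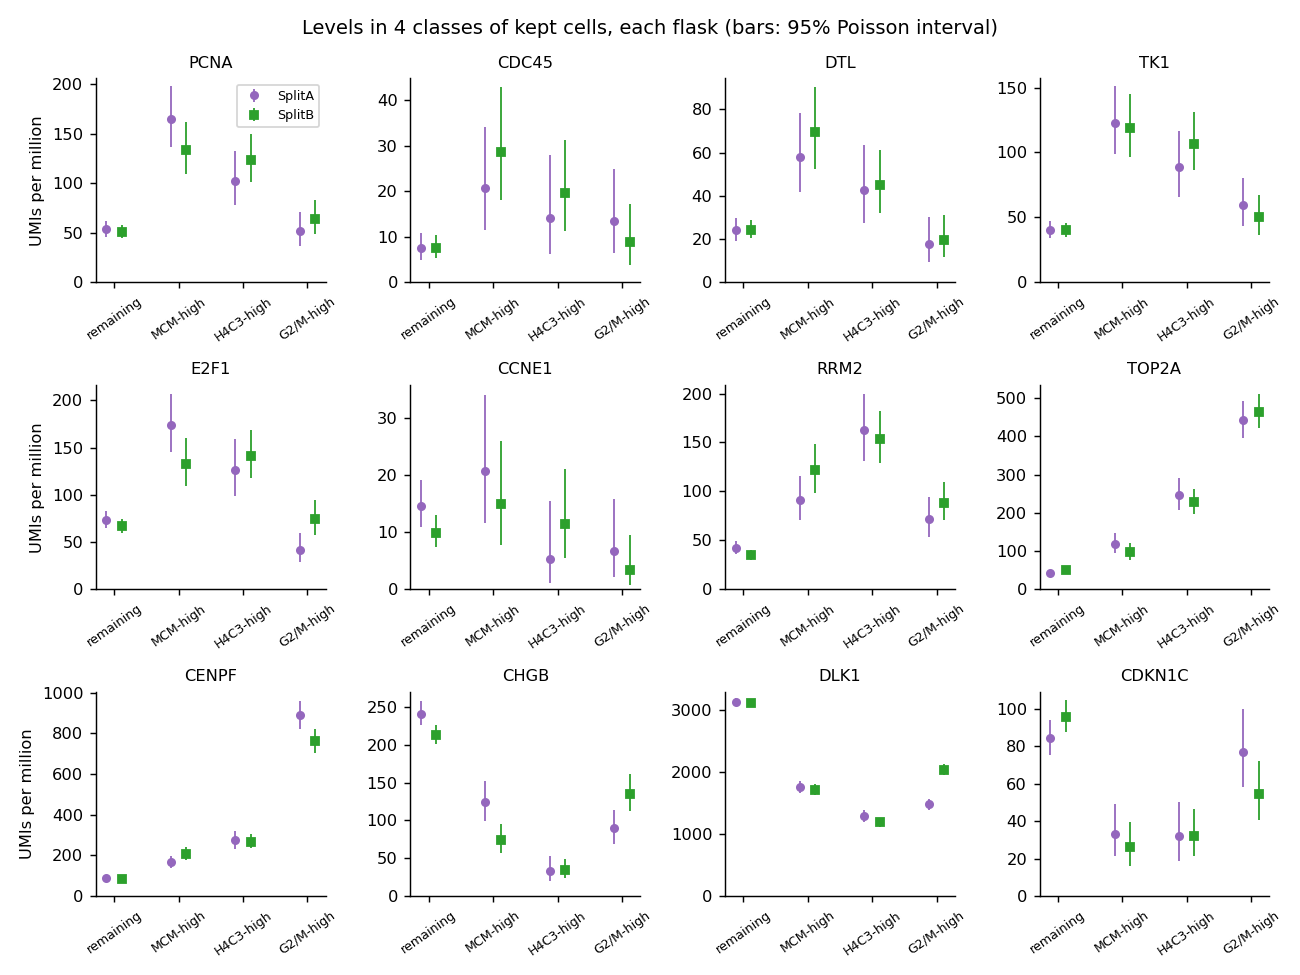
Level of 12 genes (CPM, vertical axis) in 4 classes of kept cells, with circles for SplitA, squares for SplitB and bars for exact Poisson 95% intervals. PCNA, CDC45, DTL and TK1 are above the remaining cells in the MCM-high class of both flasks, TOP2A and CENPF are highest in the G2/M-high class, which they helped to choose, and CHGB, DLK1 and CDKN1C are lower in the MCM-high class than in the remaining cells.

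A few neuroendocrine genes were lower in MCM-high cells. Of the 20 genes for neuropeptides, granins and secretion, 16 were tested, 5 were lower (31.3%) and 0 higher, and the median of all 16 was -0.07. In both flasks 8 of the 16 were below 0 and 3 above 0, where 3250 of all 10715 tested genes were below and 2844 above. CHGB (chr20, 5911510 to 5925353), which encodes secretogranin 1, had 124 and 74.4 CPM against 195 and 181 (log2 -1.01, SE 0.13, edgeR adjusted p = 2.48e-05). CHGA, chromogranin A, had 255 and 177 CPM against 398 and 361. DLK1 (chr14, 100725705 to 100738224), a surface protein of immature neuroendocrine cells, had 1753 and 1715 CPM against 2673 and 2731. GAL (chr11, 68683779 to 68691175), the neuropeptide galanin, had 925 and 828 CPM against 1274 and 1403, 0.69 lower. CARTPT, another neuropeptide, had 2 UMIs in all MCM-high cells and 199 in the others, a ratio of 0.0777 with an exact 95% interval from 0.00934 to 0.284.

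Markers of the adrenergic, neuroblast-like state were called in both directions, 2 higher and 3 lower of 17 tested, with a median of -0.20. In both flasks 14 of the 17 were below 0 and 2 above 0, where 3250 of all 10715 tested genes were below and 2844 above. DDC (chr7, 50458436 to 50565405), which makes dopamine, had 44.2 and 50.8 CPM against 107 and 119 (log2 -1.32, SE 0.15, edgeR adjusted p = 5.34e-06). DBH, which turns dopamine into noradrenaline, had 247 and 270 CPM against 339 and 313, and HAND2, a transcription factor of sympathetic neurons, was lower by 0.37. GAP43, a protein of growing axons, had 80.0 and 98.0 CPM against 60.0 and 55.5, and the RNA-binding ELAVL4 was 0.33 higher. STMN2, the most abundant, had 726 and 693 CPM against 709 and 677 and did not pass. Mesenchymal markers were sparse, with 9 of 20 past the filter, and VIM (88.3 and 89.3 CPM against 111 and 144) and LGALS1 (1409 and 1520 against 1644 and 1682) were lower.

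Among the genes named by size, NDUFA4L2 (chr12, 57234903 to 57240715), which is induced by hypoxia, differed most, with 5.52 and 6.20 CPM in MCM-high cells against 45.0 and 48.6 (log2 -3.06, SE 0.31, edgeR adjusted p = 1.56e-06). Naming by size asked for 20 CPM in the higher class only, so the order by size is a description. The calcium-binding S100A11 had 44.2 and 29.8 CPM against 101 and 128, and S100A10 11 and 14.9 against 27.7 and 30.5. INSM2, KDM6B, DYRK1B, MXD4 and DPYSL3 were lower by 1.61, 1.16, 1.07, 1.07 and 1.07, where MXD4 encodes an antagonist of MYC and KDM6B a histone demethylase. On the higher side, RMI2 (chr16, 11249619 to 11381662), a part of the complex that dissolves crossed DNA strands, had 108 and 95.5 CPM against 42.5 and 41.9, and TCF19 was 1.05 higher.

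MALAT1 and KCNQ1OT1, 2 nuclear RNAs of the 3 tested, were lower by 0.26 and 0.92, and 4 of 13 mitochondrial genes were lower, with MT-ND5 at -0.33 and MT-CO2, the most abundant, at -0.11. Ribosomal protein genes, gathered by their symbols after their values were seen, were called lower in 59 of 79 cases with a median of -0.17, and 1 was higher, the paralog RPL39L, whose call was lost in 6 alternatives (DESeq2, no filter on low counts, the 6 MCM genes alone, the top 10% by score, a mitochondrial limit of 10% and the top 20% for H4C3 left out). With library totals 42 of the 79 were lower and the median was -0.10, and in cells of 4000 to 8000 UMIs 63 were lower. Fewer were called lower without the G2/M-high members (33), with the top 10% by score (17) and with the score from thinned cells (7), where the medians were -0.12, -0.21 and -0.12. Ribosomal protein RNA made up 34.9% of the UMIs in MCM-high cells and 37.5% in the other kept cells, against 11.5% in the cells left out for under 1000 genes and 14% in those left out for mitochondrial RNA. The part of cell quality in the lower ribosomal values was not tested. Of 18 stress genes 1 was called higher and 1 lower. In the nucleolar list 1 of 24 genes was called, the chaperonin HSPD1, which was higher by 0.38.

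Depth differed between the classes. MCM-high cells had a median of 5839 UMIs in SplitA and 5675 in SplitB, against 6409.5 and 6743 in the other cells, and their share was 16% of kept cells with 1000 to 1499 genes (11.8 to 21) and 8.58% of those with 2500 or more (5.52 to 12.6). Thinned to 1000 UMIs they had a median of 534 genes, against 515. The mitochondrial share was 8.41% against 8.58%. HSP90AA1, a chaperone and the only gene of the stress list called higher, had 920 and 730 CPM against 568 and 612 (log2 0.40, edgeR adjusted p = 0.00177). TUBA1A, a tubulin looked up after its values were seen, was 0.46 higher. These differences depended on the cells and on the score. With the score ranked within 5 bands of depth they were 0.48 and 0.46, and both passed. In cells of 4000 to 8000 UMIs they were 0.20 and 0.16, with the score from thinned cells 0.18 and 0.18, and without the G2/M-high members 0.12 and 0.16, and in these 3 settings neither passed. DESeq2 did not call HSP90AA1 (log2 0.42, DESeq2 adjusted p = 0.328) and did call TUBA1A (0.48, DESeq2 adjusted p = 0.000923). In the cells left out for under 1000 genes TUBA1A had 3557 CPM and HSP90AA1 3032. The part of depth and of G2/M-high members in these differences was not tested further. Scrublet marked 1 of the 254 cells as a doublet.

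To place the cells within S phase, the MCM-high cells were compared with the other class with replication RNAs. This class was the 192 cells in the top 10% for H4C3. It holds the 34 cells that passed the score limit and were left out of the MCM-high cells for H4C3. The 2 classes are therefore not separate by the ranking score. Both classes were chosen with H4C3, so histone genes are a description. Of 6487 genes tested, 86 were higher in MCM-high cells (1.33%) and 107 lower (1.65%), with a median log2 difference of -0.01, and with library totals 102 and 38. The 2 comparisons share the sums of the MCM-high cells, so they are not independent.

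Few replication genes passed between these classes. In licensing and firing 0 of 16 tested genes passed and in the fork list 0 of 24, with medians of -0.10 and 0.04. PCNA had 166 and 134 CPM in MCM-high cells against 103 and 124 (log2 0.30, SE 0.16, edgeR adjusted p = 0.389), and E2F1 174 and 133 against 126 and 141 (0.10, SE 0.15). TYMS had 163 and 151 CPM against 167 and 181. The genes that did pass went both ways. RRM2 was lower in MCM-high cells, with 91.1 and 122 CPM against 163 and 154 (log2 -0.61, SE 0.16, edgeR adjusted p = 0.0257), and PCLAF was 0.39 lower. CDCA7 was 0.79 higher. Its call was not made with the top 10% by score, a thinned score, no filter on low counts, DESeq2 size factors or DESeq2. E2F6, a repressor of the E2F family, and CDKN2D, the CDK inhibitor p19, were lower by 1.15 and 1.04. CCND1 had 817 and 892 CPM against 752 and 643 and did not pass. In DNA repair 0 of 21 tested genes passed, and of 11 p53 targets 0.

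Of 50 tested genes of G2 and mitosis, 15 were lower in MCM-high than in H4C3-high cells (30.0%) and 0 higher, with a median of -0.56. Cells in the top 15% for the G2/M class genes stayed in both classes. They made up 28.2% of H4C3-high cells in SplitA (18.6 to 39.5) and 13.2% in SplitB (7.56 to 20.8). Among MCM-high cells they made up 9.40% (4.79 to 16.2) and 11.7% (6.82 to 18.3). Their part in these differences was not tested. TOP2A, the topoisomerase of chromosome condensation, had 119 and 96.7 CPM against 246 and 227 (log2 -1.20, SE 0.14, edgeR adjusted p = 2.08e-07). MKI67 had 127 and 130 CPM against 181 and 202, CENPF 166 and 206 against 273 and 268, and NCAPD2 and CENPA were lower by 1.29 and 1.04. Of 8 histone genes, 6 were lower, among them the linker histones H1-3 at -2.29 and H1-5 at -1.83 and the core histone H2BC8 at -1.73.

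Of 15 tested neuroendocrine genes, 5 were higher in MCM-high than in H4C3-high cells (33.3%) and 0 lower, with a median of 0.35. CHGB had 124 and 74.4 CPM against 33.7 and 34.4 (log2 1.41, SE 0.24, edgeR adjusted p = 0.000214), GAL 925 and 828 against 512 and 583, NPY, neuropeptide Y, 406 and 485 against 239 and 300, and DLK1 1753 and 1715 against 1287 and 1187. CHGA was 0.63 higher. Of the adrenergic markers STMN2 (726 and 693 CPM against 386 and 416), GAP43 and PHOX2A were higher. LGALS1 (1409 and 1520 CPM against 828 and 827) and VIM were higher and TWIST1 lower. The heat shock genes HSPB1, HSPA8 and HSP90AA1 were higher by 0.49, 0.42 and 0.32, in classes that differed in median depth, 5731 UMIs per cell against 7210. For HSP90AA1 the call was lost with a thinned score (0.11), the top 10% by score, DESeq2 size factors and DESeq2. TUBA1A, looked up after its values were seen, was 0.63 higher (edgeR adjusted p = 5.05e-05). Its call was kept with a thinned score (0.37) and lost with DESeq2. Of the genes named by size, S100A11 (2.26) and AHNAK (1.67) differed most on the higher side, and LMNA, which encodes lamin A, was 1.24 higher. S100A11 had 8.86 and 5.74 CPM in H4C3-high cells and AHNAK 1.77 and 17.2. Naming by size asked for 20 CPM in the higher class only, so the order by size is a description. On the lower side PIF1, a helicase, was at -1.51, and larger differences outside the histones were those of ENSG00000284681, which has no symbol here (-2.33), TRMT10B (-1.67), CIC (-1.62), PAXIP1 (-1.56) and RNF166 (-1.53). These genes had low levels in MCM-high cells, such as 6.90 and 4.96 CPM for ENSG00000284681 and 4.14 and 11.2 for PAXIP1, so their order is a description too. Among 20 nucleolar genes NPM1 was higher and HSPE1 lower, 1 of 13 mitochondrial genes was lower, and of 3 nuclear RNAs MALAT1 was lower.

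Levels in the 4 classes are given as a description. The MCM-high and H4C3-high classes kept their cells high for the G2/M class genes. TOP2A, which helped to choose the G2/M-high class and so also to empty the remaining class of cells high for it, had 42.1 and 49.9 CPM in the remaining cells, 119 and 96.7 in MCM-high, 246 and 227 in H4C3-high and 443 and 464 in G2/M-high cells, and no intervals of neighbouring classes overlapped within a flask. RRM2 followed another order, with 42.3 and 34.9 CPM in the remaining cells, 71.8 and 88.6 in G2/M-high, 91.1 and 122 in MCM-high and 163 and 154 in H4C3-high cells, where the intervals of G2/M-high and MCM-high overlapped in both flasks and those of MCM-high and H4C3-high in SplitB. CCNE1 was below 21 CPM in every class, and its intervals in MCM-high and remaining cells overlapped. DLK1 was highest in remaining (3133 and 3116 CPM) cells, lower in MCM-high (1753 and 1715) and lower again in H4C3-high cells (1287 and 1187), with no overlap of the intervals within a flask. In G2/M-high cells it had 1482 CPM in SplitA and 2038 in SplitB, below the MCM-high level in SplitA and above it in SplitB.

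Kept cells were ordered by the ranking score into 10 bands, as a description. Summed replication genes outside the ranking had higher levels in band 10 than in band 1. They did not rise at every step. Genes of origin licensing and firing had 742 and 728 CPM in band 9 and 736 and 722 in band 10. Neuropeptides and granins and nuclear RNAs were lower in band 10 than in band 1. For p53 targets the intervals of the end bands overlapped in both flasks, and for histones in SplitA. Bands 1 and 2 hold the 349 cells of score 0, placed in arbitrary order, and bands 9 and 10 hold the MCM-high cells. Summed fork genes went from 588 and 702 CPM in band 1 to 1697 and 1762 in band 10, and PCNA alone from 25.6 and 15.1 to 176 and 173. Nucleotide genes went from 1003 and 1119 to 2523 and 2563. G2/M class genes had their maximum in band 6, with 1038 and 978 CPM, and 666 and 683 in band 10. Neuropeptides and granins were at 7558 and 8674 CPM in band 1 and 4803 and 4266 in band 10. H4C3 was highest in band 9 in SplitA (4377 CPM) and in band 8 in SplitB (4217). Median depth was 5665 and 5813 UMIs in band 1 and 5909.5 and 5647 in band 10, and it was highest in band 6 in both flasks (6893.5 and 7352.5), the band of the G2/M maximum.

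**Figure D5:**
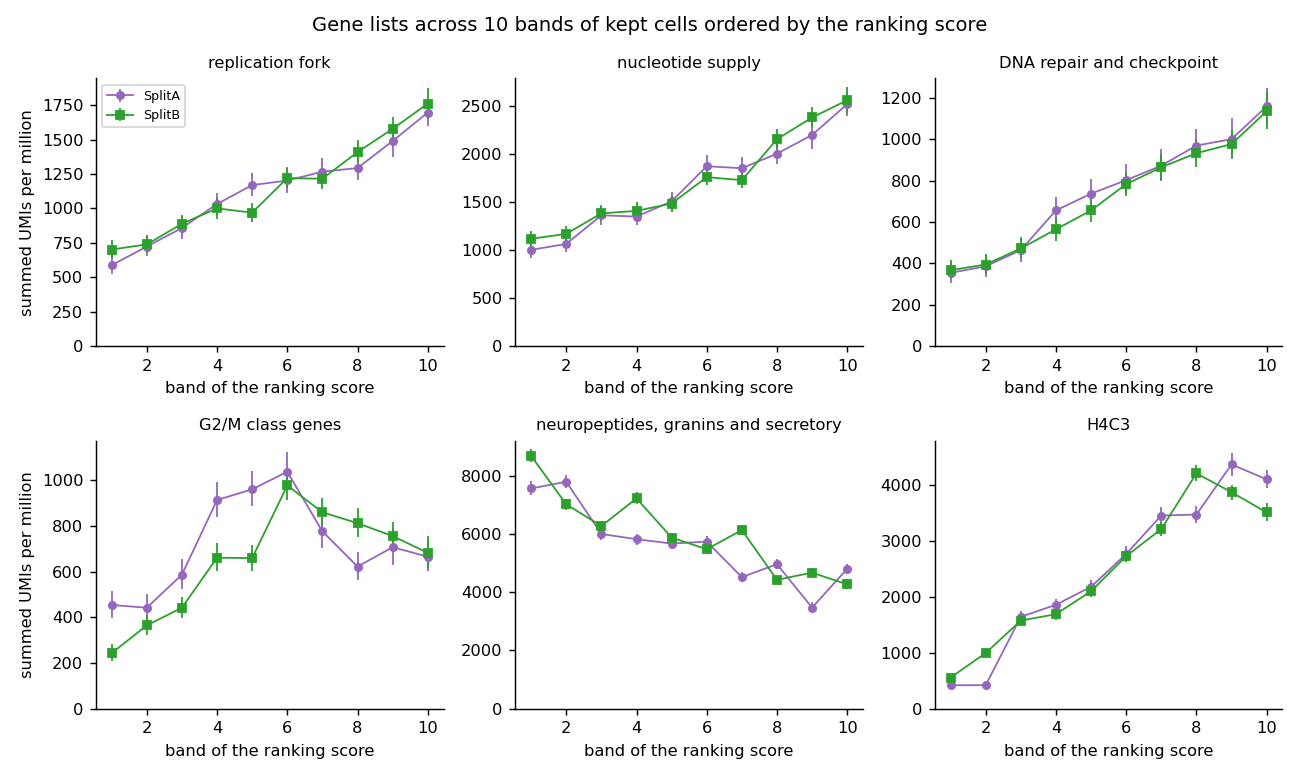
Summed level (CPM, vertical axis) of 5 gene lists and of H4C3 in 10 bands of kept cells ordered by the ranking score (horizontal axis), with circles for SplitA, squares for SplitB and bars for exact Poisson 95% intervals. Fork genes climb from 588 and 702 in band 1 to 1697 and 1762 in band 10, while the G2/M class genes peak in band 6.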

How the data were processed

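One CITE-seq library of untreated SH-SY5Y cells from 2 flasks, SplitA and SplitB, was used. The authors deposited raw UMI counts per gene and hashtag for each cell, made with Cell Ranger 4.0.0 and STAR 2.7 per the submitters' processing notes, and the annotation version is not given in the sources used here. Flasks were told apart by their hashtags, and the feature reference was not used. The members, gene lists and lookups were chosen with earlier results of these data known.

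Of 33538 gene identifiers 33113 had a symbol. Counts were summed per flask and class, giving 4 sums, and genes with low counts were removed with edgeR's filterByExpr. Ranking genes and H4C3 stayed in the library sizes but were not tested. edgeR's quasi-likelihood test used TMM scaling and the flask as a block, since both classes of a flask come from that flask (the pairing is given by the hashtags), which left 1 residual degree of freedom per gene. The variance of each gene was therefore moderated with that of the other genes. The prior degrees of freedom were 22.2 against other cells and 40.0 against H4C3-high cells. P-values were adjusted by Benjamini-Hochberg over all genes tested. With 1 library there was no batch to compare. Named genes were the 15 largest and 10 smallest called differences at 20 CPM or more in the higher class of both flasks, up to 3 called genes of each list at 10 CPM or more with its most abundant gene, and a fixed set of cycle genes; others were looked up after their values were seen. Scores, thinning (seed 1), intervals and figures used matplotlib 3.10.9, pandas 2.3.3, scipy 1.17.1 and numpy 2.4.6 under Python 3.11.15, and tests R 4.3.3 with edgeR 4.0.16 and DESeq2 1.42.0. Multiplets by hashtag (95 cells) were removed. Scrublet in scanpy 1.11.5 marked 7 of 2879 cells, too few to count as a working call, and its cells were kept. The fits were tested on simulated data, and the outcome is not reported here. Alternatives changed the score, the limits, the cell filters, the scaling, the block and the tool. Promoters came from the RefSeq table and gene positions from GENCODE release 44. Some results are not reported here.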

Additional observations from a re-analysis of the deposited data

Results flagged for a closer look

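The ranking genes were also counted in cells outside the comparisons, as a description. The reference below, the other kept cells, was left after the MCM-high cells had been taken out. Its levels of the ranking genes are therefore lowered by the choice of the cells. In the 690 assigned cells with under 1000 genes the 10 ranking genes summed to 1588 CPM (exact Poisson 95% interval 1510 to 1669), and in the 174 cells with 15% or more mitochondrial UMIs to 1610 CPM (1506 to 1720), against 341 and 358 CPM in the other kept cells of SplitA and SplitB. In the 62 hashtag multiplets that passed the cell filters they summed to 471 CPM (415 to 533). The MCM-high cells, with 1162 and 1136 CPM, are not in the reference, so no excess in multiplets is read from it. Of these 3 groups 57.1%, 67.8% and 14.5% of the cells passed both limits of the MCM-high class, at median depths of 1406.5, 2770.5 and 8008.5 UMIs. The exact binomial 95% interval of the multiplets (6.86 to 25.8) held the MCM-high shares of kept cells, 14.1% in SplitA and 12.6% in SplitB. In the first and the second group all 10 ranking genes had higher levels than in this lowered reference, from MCM7 (680 and 687 CPM against 88.6) and MCM6 (141 and 103 against 22.2) to UNG (30.4 and 28.9 against 17.7) and GINS2 (67.9 and 81.1 against 52.7). The MCM-high cells missing from the reference had 223 CPM of GINS2, so its small difference is not read as a rise. Of the genes not used for the ranking, PCNA had 196 and 189 CPM against 60.8, TYMS 173 and 314 against 97.0, E2F1 90.2 and 84.8 against 76.1 and CDT1 36.5 and 57.7 against 51.4. The MCM-high cells missing from the reference had 152 CPM of E2F1 and 96.7 of CDT1, so nothing is read from the small differences of these 2 genes. H4C3 had 95.3 and 229 CPM there, against 2478 in the other kept cells.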

How the results depend on the processing

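Against other cells (120 higher, 132 lower), higher genes numbered 202 with the top 20% by score, 236 with no cells left out for H4C3, 201 without H4C3-high cells on the other side, 393 against remaining cells only, 211 with library totals and 26 with DESeq2. Lower genes numbered 62 with the top 10%, 64 with a thinned score, 208 with the 6 MCM genes alone, 239 with no cells left out for H4C3, 373 against remaining cells, 206 with at least 1500 genes, 202 with no filter on low counts and 64 with DESeq2. Against H4C3-high cells (86 higher, 107 lower), higher genes numbered 28 with the top 10%, 141 with a thinned score, 144 with the top 20% for H4C3 left out, 36 with DESeq2 size factors, 52 with no filter and 9 with DESeq2, and lower genes 14 with the top 10%, 57 with the top 20%, 174 with a thinned score, 39 with DESeq2 size factors, 38 with library totals, 51 with no filter and 15 with DESeq2. The thinned score gave 399 MCM-high cells. Without the replicate block the counts were 169 and 179 against other cells and 110 and 135 against H4C3-high cells. In cells of 4000 to 8000 UMIs, an alternative chosen after seeing the data, they were 80 and 117. Of 60 named genes called against other cells 12 kept the call with DESeq2, and of 56 against H4C3-high cells 8. Leaving out a flask leaves no residual degrees of freedom and gives values with no test. With 1 or the other flask left out, the value was marked as moved for 24 and 27 of the 60 named genes and as reversed for 0. Against H4C3-high cells it was marked as moved for 22 and 24 of the 56 and as reversed for 0. INSM2, for example, was at -1.12 in SplitA and -2.13 in SplitB, and DYRK1B at -1.68 and -0.60. The cause of these changes was not tested.

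Some log2 differences changed sign. Against remaining cells, which were chosen low for AURKA, CENPF and TOP2A, AURKA was 0.23, CENPA 0.94, CENPF 1.03 and TOP2A 1.1. With a thinned score CENPF was 0.033 and CDKN1A 0.25, and with the 6 MCM genes CENPF was 0.003, NHP2 -0.026 and CDKN1A 0.094. BAX was 0.0086 with no cells left out for H4C3. STMN2, HSPB1 and MKI67 were 0.091, 0.048 and -0.32 with the top 20% for H4C3 left out. Without G2/M-high members STMN2, HSPB1, CDKN1A and MKI67 were 0.070, 0.011, 0.18 and -0.22, and with library totals STMN2, HSPB1 and CDKN1A were 0.034, 0.019 and 0.013. HSPB1 was 0.046 with the top 10%, and MKI67 -0.093 with a mitochondrial limit of 10% and -0.018 in cells of 4000 to 8000 UMIs. Against H4C3-high cells CDT1 was 0.051 within bands of depth, 0.16 with the top 20% for H4C3 left out, 0.059 with library totals, 0.0014 with no filter and 0.0039 without the replicate block. RPA3 was -0.012 with the top 20%, -0.17 with a thinned score and -0.019 with the top 20% for H4C3 left out. NHP2, PCNA and E2F1 were -0.037, -0.054 and -0.0015 with a thinned score, and E2F1 was -0.11 with the top 20% for H4C3 left out.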

Other observations

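Other called genes were looked up after their values were seen and are given as values. ESCO2, which joins sister chromatids in S phase, had 24.8 and 13.6 CPM in MCM-high cells of SplitA and SplitB against 8.54 and 5.78 in the other cells. Its log2 difference of 1.34 (edgeR adjusted p = 0.028) did not pass in 6 alternatives, with adjusted p = 0.0519 without the G2/M-high members, 0.0956 with the top 10% by score, 0.102 in cells of 4000 to 8000 UMIs, 0.107 with a mitochondrial limit of 10%, 0.184 with the top 20% for H4C3 left out and 0.244 with a thinned score, and DESeq2 gave it no adjusted p. CDCA5, which protects that cohesion, had 66.2 and 76.9 CPM against 31.9 and 36.4. PKMYT1, a kinase that restrains CDK1, had 40.0 and 58.3 CPM against 25 and 23.3. The splicing factors SRSF2, SRSF7 and TRA2B were higher by 0.39, 0.48 and 0.35 on the log2 scale. Other splicing factor genes were not tallied, so nothing is read about the family. GNAS, a G protein subunit, was 1 of the 132 genes called lower, with a log2 difference of -0.71.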
